A study of Rattus norvegicus with 6 samples.

Results

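The genes described here encode the carriers that move amino acids and neurotransmitters across cell membranes, with the heavy chains that some of them need. They were taken as every gene whose symbol belongs to the solute carrier families Slc1, Slc3, Slc6, Slc7, Slc36, Slc38 or Slc43, which gave 59 of the 17327 gene symbols counted. One of the 59, Slc7a6os, carries a transporter's name only because it lies next to Slc7a6 on the genome and is not a carrier. The other 58 genes belong to the named families and include the Slc3 heavy chains, which are partners of carriers. Of the 59, 48 had at least 1 read in some sample and 29 had enough reads to be tested.

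As background, a cell takes up amino acids both as building blocks for protein and as signals. Sodium-driven carriers such as those of Slc1 and Slc38 pull amino acids in against their gradient, while the exchangers of Slc7 swap one amino acid for another and mostly need a heavy chain, encoded by an Slc3 gene, to reach the cell surface. The Slc6 family uses sodium and chloride to clear GABA, glycine and monoamines and to take up taurine and creatine. Slc36 includes carriers that move amino acids with protons, and Slc43 carriers let large neutral amino acids run down their gradient. In glia, glutamate uptake through Slc1 carriers is the best known of these activities.

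RNA was sequenced from primary Schwann cells, the glia of peripheral nerve, prepared from sciatic nerves of adult female Wistar rats. Both groups were confluent cells that had been grown with an added growth factor. The sources differ on it, with NRG1 in the study's methods and glial growth factor in the sample labels. The cells were starved for 18 h in medium with 2% FBS, 2 mM L-glutamine, 1 mM pyruvate and 10 μM forskolin, an agent that raises cAMP. They were then stimulated for 6 h in that medium. The NRG1 group (n = 3) received 10 nM recombinant soluble NRG1β1, a ligand of the ErbB receptors, and the mock group (n = 3) received the same volume of its buffer, PBS with bovine serum albumin. Each of 3 independent cultures gave 1 mock and 1 NRG1 sample with the same number, and reads on genes ranged from 6821590 to 15475018 per sample.

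The cultures differed in the markers of cell types that they carried. All 10 Schwann cell markers looked at were read, with a summed level of 7083 to 18749 CPM (counts scaled to the normalised library size) in mock and 5141 to 13698 CPM in NRG1 samples, and 5 of them fell with NRG1. Both samples of culture 1 lay at the bottom of these ranges and carried defining markers of fibroblasts that were not read elsewhere. Dcn was counted 4574 times in the mock and 3203 times in the NRG1 sample of culture 1, and 0 times in the other 4 libraries, and Thy1 was counted 9493 and 8576 times against 0. The summed level of the 7 fibroblast markers was 14052 to 52262 CPM in mock and 13684 to 56582 CPM in NRG1 samples, and most of it in cultures 2 and 3 was Col1a1. Endothelial cell, neuron and fat cell markers stayed at or under 1.18 CPM in sum, macrophage markers at or under 10.1 CPM and skeletal muscle markers at or under 7.97 CPM. A change in the number of cells of a type and in the RNA per cell cannot be told apart in bulk samples. The calls are therefore also given without culture 1.

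NRG1 raised 6 of the 29 tested genes, namely the glutamate carriers Slc1a3 and Slc1a1, the glutamine carrier Slc1a5, the vesicular carrier Slc6a17, the large neutral amino acid exchanger Slc7a5 and the arginine carrier Slc7a1. It lowered 1, the large neutral amino acid carrier Slc43a2. These calls are at an adjusted p of at most 0.01 in edgeR's paired test over all 9740 genes that passed the filter on low counts, in which 6.31% of genes rose and 5.51% fell. The share was 20.7% up and 3.45% down among the tested transporters. With the study's further condition of an over 2-fold change, 3 transporters were up-regulated (all genes, 1.56%) and none was down-regulated (all genes, 1.91%). Slc43a2 stood just short of that limit, with a log2 fold change of -0.99, and no transporter was lower by over 2-fold at an unadjusted p under 0.05 in edgeR or by DESeq2 (0 in each). At any size, 2 were lower at an unadjusted p under 0.05. The median log2 fold change was 0.17 over the 29 transporters and -0.03 over all genes tested. Mock and NRG1 levels did not overlap for 7 of the 29 transporters, or 24.1%, where the background over all genes was 19.7%.

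**Figure D1:**
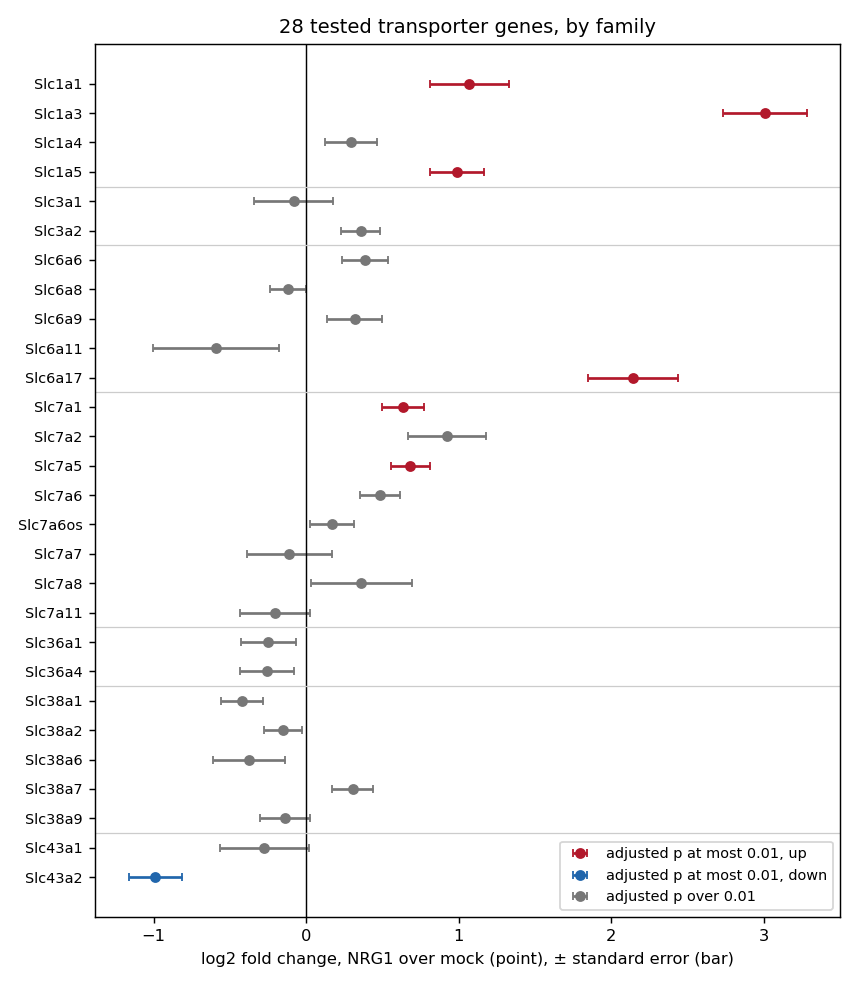
Log2 fold change of NRG1 over mock (x axis) for 28 of the 29 tested transporter genes (rows, grouped by family), as points with the standard error as bars, in 3 paired cultures. Red marks the 6 genes that rose and blue the 1 that fell at an adjusted p of at most 0.01. Slc1a3 lies farthest right at 3.01 and Slc43a2 farthest left at -0.99.

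Without culture 1, 6 of 31 tested transporters passed in place of 7 of 29. Of the 6, 4 were shared with the full set, Slc1a3, Slc1a5, Slc6a17 and Slc43a2. Over all genes, 1191 of 9926, or 12%, were called without culture 1, against 11.8% in the full set. Slc1a1, Slc7a1 and Slc7a5 kept their direction but missed the threshold in the 2 remaining cultures, and Slc7a2 and Slc7a6, which missed it in the full set, passed. Without culture 1 the test took the spread of each gene wholly from an estimate shared by all genes, so the sizes of its p-values are not comparable with those from 3 pairs. The plot of fold changes with and without culture 1 shows these shifts gene by gene.

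**Figure D2:**
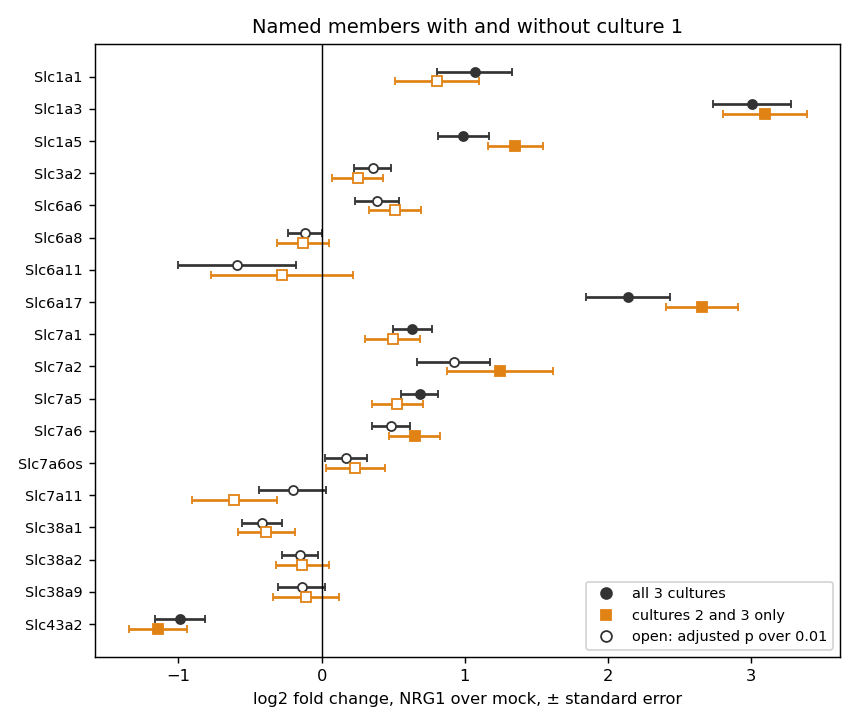
Log2 fold change of NRG1 over mock (x axis) with its standard error, for the 18 named transporter family genes (rows), from all 3 cultures (circles) and from cultures 2 and 3 alone (squares), with open symbols for an adjusted p over 0.01. All 18 genes lie on the same side of 0 in both fits, and the squares of Slc6a17, Slc7a11, Slc1a5 and Slc7a2 lie farthest outside their circles.

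The family with the largest share of changed members was Slc1, where 3 of the 4 tested genes rose (75%, all genes 6.31%). The median log2 fold change over the 4 was 1.03. Slc1a3 encodes the glial glutamate transporter GLAST. Its level was 0.261, 2.37 and 2.28 CPM in mock samples 1, 2 and 3 and 0.653, 19.8 and 19.9 CPM in NRG1 samples 1, 2 and 3. The rise was thus nearly the same in cultures 2 and 3, with counts of 16 against 176 and of 29 against 309, while culture 1 had only 2 and 5 reads of the gene. The log2 fold change was 3.01 (SE, the standard error, 0.27, adjusted p = 8e-06), an 8.05-fold rise, and it was 3.10 (SE 0.29, adjusted p = 2.3e-23) in cultures 2 and 3 alone. Because of culture 1 the mock and NRG1 levels overlap.

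Slc1a1, which encodes the glutamate and cysteine carrier EAAC1, was counted at 2.35, 3.25 and 5.98 CPM in mock and 8.23, 7.64 and 8.64 CPM in NRG1 samples of cultures 1, 2 and 3. The NRG1 samples agreed closely, all above every mock sample, and the pair with the highest mock level had the smallest rise. The log2 fold change was 1.07 (SE 0.26, adjusted p = 0.009), near the threshold, and leaving out culture 1 or culture 2 gave 0.81 (adjusted p = 0.035) and 0.98 (adjusted p = 0.031). Its gene span overlaps that of Spata6l in a RefSeq gene table that was not checked against the rn5 annotation behind the counts. The strand setting of the counting is not given in the sources used here. In the same table, Slc3a1, Slc6a9, Slc7a8, Slc36a1, Slc36a4 and Slc38a6 among the other tested genes overlap a gene on the opposite strand. Slc6a6 and Slc38a9 overlap a gene whose strand was not compared.

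Slc1a5, which encodes ASCT2, an exchanger that brings in glutamine, was at 80.0, 26.8 and 28.3 CPM in mock and 99.8, 72.4 and 68.5 CPM in NRG1 samples. Culture 1 had the highest level in both groups and the smallest rise, so that its mock sample lay above the NRG1 samples of the other 2 cultures. The log2 fold change was 0.99 (SE 0.18, adjusted p = 0.0014) over 3 cultures and 1.35 (SE 0.19, adjusted p = 3.2e-10) in cultures 2 and 3. The related Slc1a4, which encodes the serine and alanine exchanger ASCT1, had a log2 fold change of 0.29 (95% interval -0.07 to 0.66) and an adjusted p of 0.24. Slc1a2, the main glutamate carrier of astrocytes, had 0 reads in the 6 libraries.

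**Figure D3:**
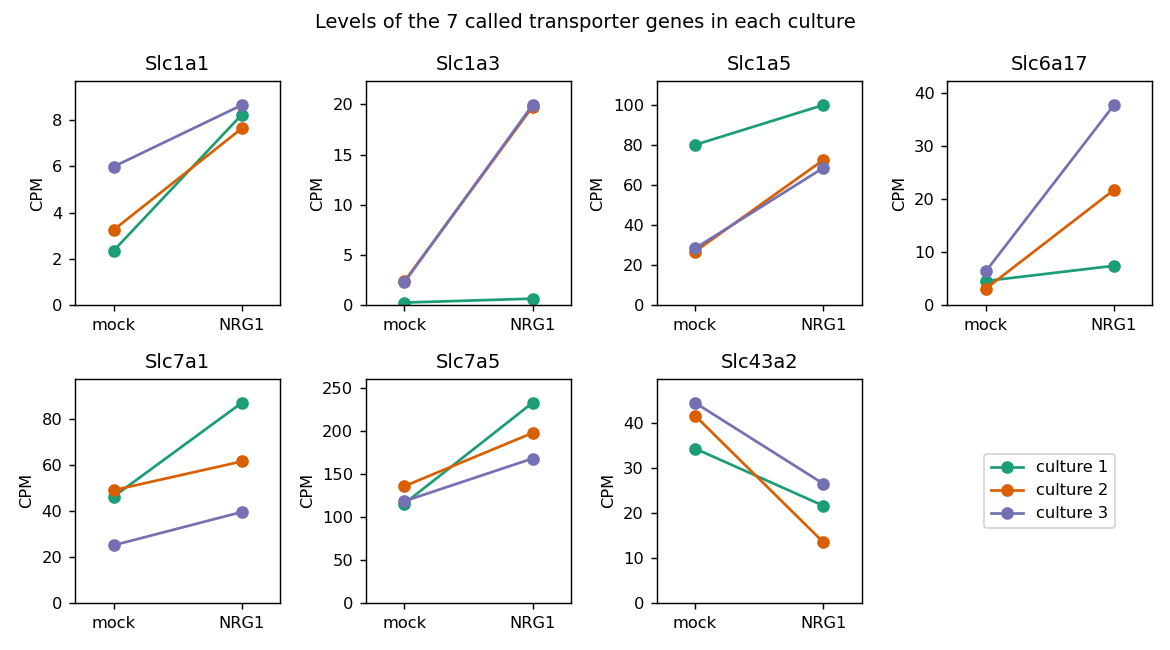
CPM (y axis, from 0, a scale of its own in each panel) of the 7 transporter genes past an adjusted p of 0.01, in mock and NRG1 samples, with a line joining the 2 samples of each culture. Slc43a2 falls in every culture and the other 6 rise in every culture, with Slc1a3 near 0 in both samples of culture 1.

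Of the Slc6 family, 6 of 18 genes were tested and 1 rose (16.7%, all genes 6.31%). Slc6a17 encodes NTT4, a carrier of neutral amino acids known from synaptic vesicles of neurons. Its level was 4.57, 3.10 and 6.38 CPM in mock and 7.45, 21.8 and 37.8 CPM in NRG1 samples of cultures 1, 2 and 3. All NRG1 samples lay above all mock samples, and the log2 ratio within the pair was 0.68 in culture 1 against 2.73 and 2.53 in cultures 2 and 3. The log2 fold change was 2.14 (SE 0.29, adjusted p = 0.00019), a 4.41-fold rise, and 2.66 (SE 0.25, adjusted p = 2.9e-23) without culture 1. Neuronal markers were not read beyond 1.05 CPM in sum in any library.

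Slc6a6 and Slc6a8 of this family took many more reads than Slc6a17, a difference that was not corrected for transcript length. Slc6a6, which takes up taurine, was at 196, 351 and 259 CPM in mock and 216, 379.6 and 484 CPM in NRG1 samples, with most of the difference in culture 3. Its log2 fold change was 0.38 (SE 0.15, adjusted p = 0.083) and dropped to 0.15 (adjusted p = 0.67) without culture 3. Slc6a8, which takes up creatine, was at 219, 366 and 434 CPM in mock and 206, 308 and 428 CPM in NRG1 samples, which gave a log2 fold change of -0.12 (95% interval -0.38 to 0.14) with an adjusted p of 0.52. Levels of Slc6a8 differed between cultures far more than between mock and NRG1. Slc6a9, the glycine carrier GlyT1, had pair log2 ratios of 0.58, 0.74 and -0.40 in cultures 1, 3 and 2 (adjusted p = 0.23), and passed the test when culture 2 was left out. Slc6a11, a carrier of GABA, was at 2.48, 1.33 and 1.34 CPM in mock and 1.05, 0.562 and 1.48 CPM in NRG1 samples, with a log2 fold change of -0.59 and a wide 95% interval of -1.47 to 0.29 (adjusted p = 0.33).

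In the Slc7 family, 2 of 8 tested genes rose (25%, all genes 6.31%), and 6 of the 8 were higher with NRG1 in every culture. These 6 include Slc7a6os, which is not a carrier. Over all genes tested, 2533 of 9740 were higher in every culture. Slc7a5 encodes LAT1, the exchanger through which leucine and other large neutral amino acids enter many growing cells. It was at 116, 136 and 118 CPM in mock and 233, 198 and 168 CPM in NRG1 samples of cultures 1, 2 and 3. The groups did not overlap, and the log2 fold change was 0.68 (SE 0.13, adjusted p = 0.002), a 1.61-fold rise. Culture 1 rose most, with a log2 ratio of 1.01 against 0.54 and 0.50, and without it the log2 fold change was 0.53 (SE 0.18, adjusted p = 0.021).

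Slc3a2 encodes the heavy chain 4F2hc (CD98), with which LAT1 and several other Slc7 chains form their dimers. It was at 235, 244 and 236 CPM in mock and 351, 325 and 251 CPM in NRG1 samples. Mock samples lay within a few CPM of each other and below every NRG1 sample, but the pair log2 ratio went from 0.58 in culture 1 to 0.09 in culture 3. Its log2 fold change of 0.36 (95% interval 0.08 to 0.63) had an adjusted p of 0.058 and was not called. The other heavy chain gene, Slc3a1, had a log2 fold change of -0.08 (adjusted p = 0.85). No gene of Slc3 was called, with 1 at an unadjusted p under 0.05 in edgeR and 0 called by DESeq2.

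Slc7a1 encodes CAT-1, which takes up arginine, lysine and ornithine. It was at 46.1, 48.9 and 25.0 CPM in mock and 86.9, 61.4 and 39.5 CPM in NRG1 samples, higher in every pair although the groups overlap. The log2 fold change was 0.63 (SE 0.14, adjusted p = 0.0046), and it missed the threshold without culture 1 (0.50, adjusted p = 0.053) and without culture 3 (0.64, adjusted p = 0.019). The second cationic carrier, Slc7a2, had few reads and a larger log2 fold change of 0.92 (SE 0.25, adjusted p = 0.018), which passed in cultures 2 and 3 alone with 1.25 (adjusted p = 0.0075).

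Slc7a6, the light chain y+LAT2, was at 73.7, 71.3 and 64.6 CPM in mock and 82.2, 119 and 95.02 CPM in NRG1 samples. The groups did not overlap, the log2 fold change was 0.49 (SE 0.13, adjusted p = 0.016), and in cultures 2 and 3 alone it was 0.65 (adjusted p = 0.0032). Slc7a6os, its neighbour on the genome, had a log2 fold change of 0.17 (95% interval -0.14 to 0.48) with an adjusted p of 0.44. Slc7a11, the light chain of the cystine and glutamate exchanger xCT, varied widely between cultures, while its direction with NRG1 differed from pair to pair. It was at 29.4, 14.8 and 2.91 CPM in mock and 36.6, 7.30 and 2.77 CPM in NRG1 samples, with pair log2 ratios of 0.31, -0.998 and -0.07 (log2 fold change -0.20, adjusted p = 0.57).

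Promoter sequence is shown for the called genes that RefSeq's GRCr8 table of promoters holds, since a reader may wish to see which short motifs lie there. The called genes Slc1a1 and Slc1a5 had no sequence in it. Each window runs from 250 bases before to 50 after an annotated start, 5′ to 3′, and 45 of the 59 symbols had one. Reads had been mapped to rn5, so these coordinates belong to the table and not to the counts. Capitals mark any match, on either strand, to the E-box CACGTG, the amino acid response element core TGATGNAA, the cAMP response element TGACGTCA or the AP-1 site TGANTCA. Slc1a3 has 3 overlapping windows, of which 1 is printed.
Slc1a3 (chr2:59557759-59558058, - strand): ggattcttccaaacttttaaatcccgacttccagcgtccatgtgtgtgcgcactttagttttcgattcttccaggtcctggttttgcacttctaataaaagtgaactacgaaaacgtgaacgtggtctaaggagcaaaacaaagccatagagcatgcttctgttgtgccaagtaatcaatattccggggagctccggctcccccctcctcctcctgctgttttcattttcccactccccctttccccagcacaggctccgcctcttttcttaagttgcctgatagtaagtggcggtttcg
Slc6a17 (chr2:197843834-197844133, - strand): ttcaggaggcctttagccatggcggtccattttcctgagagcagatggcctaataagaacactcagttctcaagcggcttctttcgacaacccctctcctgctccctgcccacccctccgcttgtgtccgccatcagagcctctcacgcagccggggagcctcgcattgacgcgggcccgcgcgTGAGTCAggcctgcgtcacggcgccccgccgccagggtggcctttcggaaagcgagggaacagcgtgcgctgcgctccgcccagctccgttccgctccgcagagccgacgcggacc
Slc7a1 (chr12:11664238-11664537, + strand): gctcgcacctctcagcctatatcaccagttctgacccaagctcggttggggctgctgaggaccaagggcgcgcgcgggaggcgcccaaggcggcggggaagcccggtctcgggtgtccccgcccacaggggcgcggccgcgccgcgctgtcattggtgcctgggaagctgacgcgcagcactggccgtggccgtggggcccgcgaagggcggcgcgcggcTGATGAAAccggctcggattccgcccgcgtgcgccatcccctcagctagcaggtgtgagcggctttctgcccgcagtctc
Slc7a5 (chr19:66872363-66872662, - strand): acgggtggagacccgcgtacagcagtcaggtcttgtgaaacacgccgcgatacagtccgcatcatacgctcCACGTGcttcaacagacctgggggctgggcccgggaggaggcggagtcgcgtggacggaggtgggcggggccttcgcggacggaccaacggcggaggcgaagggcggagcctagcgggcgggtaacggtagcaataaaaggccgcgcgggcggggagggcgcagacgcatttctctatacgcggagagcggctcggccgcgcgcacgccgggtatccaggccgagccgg
Slc43a2 (chr10:60874588-60874887, + strand): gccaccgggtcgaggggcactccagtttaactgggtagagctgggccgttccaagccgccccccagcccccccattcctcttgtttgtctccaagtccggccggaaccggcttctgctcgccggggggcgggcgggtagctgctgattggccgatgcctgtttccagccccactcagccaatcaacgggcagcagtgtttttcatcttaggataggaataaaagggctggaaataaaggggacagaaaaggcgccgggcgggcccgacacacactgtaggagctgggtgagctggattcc
Among these 5 genes, the search found 1 AP-1 match in Slc6a17, 1 response element core in Slc7a1 and 1 E-box in Slc7a5, with their first bases at -66, -30 and -179 counted from the start. No match to these letters lies in the windows of Slc1a3 and Slc43a2. Over the 18999 protein-coding genes with a window, 7.69% held the E-box, 3.61% the response element core, 2.28% the cAMP response element and 7.14% the AP-1 site. Of the 45 transporter family genes the numbers were 8, 3, 1 and 7. A match is a run of letters, and no binding was measured.

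Slc43a2 was the only transporter gene that fell. It encodes LAT4, which lets leucine, isoleucine, valine, phenylalanine and methionine pass in either direction. It was at 34.2, 41.5 and 44.4 CPM in mock and 21.6, 13.5 and 26.4 CPM in NRG1 samples of cultures 1, 2 and 3. Every NRG1 sample lay below every mock sample, and the log2 fold change was -0.99 (SE 0.17, adjusted p = 0.0011), a 1.99-fold lower level. It was -1.14 (adjusted p = 9.9e-07) without culture 1, -1.12 (adjusted p = 0.00079) without culture 3 and -0.71 (adjusted p = 0.0021) without culture 2, whose pair fell most. RNA of LAT4 and LAT1 thus moved in opposite directions in each of the 3 cultures.

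The sodium-coupled Slc38 carriers of small neutral amino acids were not called in either direction, with 1 of 5 higher and 1 of 5 lower at an unadjusted p under 0.05 in edgeR and 0 called by DESeq2. Slc38a2, which encodes the glutamine and alanine carrier SNAT2, took more reads than any other transporter in every library, a rank that was not corrected for transcript length. It was at 731, 899 and 807 CPM in mock and 645, 761 and 787 CPM in NRG1 samples. The level was lower with NRG1 in each pair by a small amount, with a log2 fold change of -0.15 (95% interval -0.42 to 0.11) and an adjusted p of 0.41. Slc38a1, which encodes SNAT1, was at 27.8, 36.7 and 36.6 CPM in mock and 19.9, 24.7 and 31.3 CPM in NRG1 samples, which gave a log2 fold change of -0.42 (SE 0.14, adjusted p = 0.041). It was lower in every pair and would be called only at an adjusted p of 0.05. Slc38a9, the lysosomal arginine sensor that signals to mTORC1, differed by -0.14 (95% interval -0.49 to 0.21, adjusted p = 0.58).

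Slc38a7, a glutamine carrier of lysosomes, was the only tested gene of the family that was higher with NRG1 in every pair, with a log2 fold change of 0.30 (adjusted p = 0.11). Slc36a1 and Slc36a4, the tested genes of the Slc36 family, were lower in every pair by a similar amount. Their log2 fold changes were -0.25 (adjusted p = 0.35) and -0.26 (adjusted p = 0.33). Neither passed the test, and none of Slc36 had an unadjusted p under 0.05 in edgeR or was called by DESeq2. Summed over the 59 genes, transporter reads made up a mean of 2237 CPM in mock (SD 182 over 3) against 2476 CPM with NRG1 (SD 171 over 3), and were higher in 3 of 3 pairs. An exact paired permutation test of this sum, two-sided, gave p = 0.25, the smallest value that 3 pairs allow, so it could not decide. The sum rests mostly on the genes with many reads. Mean levels rose most for Slc6a6 (269 to 360 CPM), Slc7a5 (123 to 200 CPM) and Slc3a2 (238 to 309 CPM). Slc6a6 and Slc3a2 were not called, and Slc38a2, with the most reads, went down from 812 to 731 CPM.

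Transporter levels also differed between cultures apart from the treatment. Of the 29 tested genes, 9 were higher in both samples of culture 1 than in all 4 others and 4 were lower, or 31.0% and 13.8%, where over all genes tested the shares were 19.8% and 21.9%. Slc7a7, the light chain y+LAT1, was at 15.03 and 14.6 CPM in culture 1 and between 0.787 and 1.92 CPM in the other 4 libraries. Slc43a1, which encodes LAT3, was at 15.4 and 12.9 CPM against 0.225 to 1.35 CPM. Slc43a3, a purine base carrier of the same family, was counted 177 and 152 times in culture 1 and 0 to 3 times elsewhere, and did not pass the filter on low counts. Slc38a4, another neutral amino acid carrier, had 24 reads in each sample of culture 1 and 0 in the other 4. The tested genes that were lowest in culture 1 were Slc1a3, Slc6a6, Slc6a8 and Slc38a2. Dcn and Thy1 split the libraries the same way, and the summed Schwann cell markers were lowest in culture 1. The part of either in these levels was not tested.

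**Figure D4:**
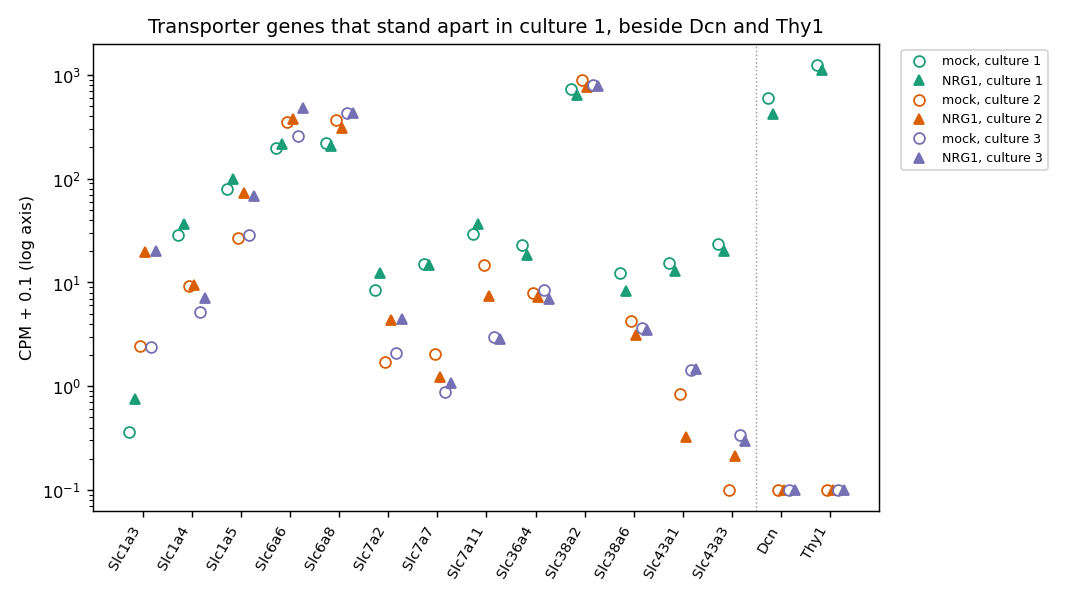
CPM plus 0.1 (y axis, log scale) in each of the 6 samples for the 13 transporter genes that reach at least 5 CPM and whose 2 samples of culture 1 lie above or below all others, beside the fibroblast markers Dcn and Thy1. Open circles are mock and triangles NRG1 samples, coloured by culture. Slc43a3 is at 23.1 and 19.9 CPM in culture 1 and counted at most 3 times in any other sample.

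Enzymes that act on the carried amino acids were read from a list of 30, of which 24 were tested, 2 rose (8.33%, all genes 6.31%) and 2 fell (8.33%, all genes 5.51%). Odc1, which turns ornithine into putrescine, rose from 69.4, 58.3 and 59.1 CPM in mock to 118, 165 and 107 CPM in NRG1 samples (log2 fold change 1.04, SE 0.14, adjusted p = 0.0002). Bcat1, which starts the breakdown of branched-chain amino acids by moving their amino group, rose from 361, 339.6 and 366 CPM to 533, 707 and 626 CPM (log2 fold change 0.80, SE 0.13, adjusted p = 0.00074). Bckdha, a subunit of the enzyme that acts next in that pathway, fell with -0.57 (SE 0.13, adjusted p = 0.0058), and Gatm, which makes the precursor of creatine, fell with -0.90 (SE 0.18, adjusted p = 0.0027). DESeq2 with the culture as covariate, applied to the lists after the data had been seen, did not call Bckdha (adjusted p = 0.015). Counts of Gatm in culture 1 were 13 and 3, so its values rest mainly on the other cultures. The median log2 fold change of the list was 0.06, close to that of all genes.

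Of the genes through which mTORC1 senses amino acids, 25 of the 30 listed symbols were in the files and 24 were tested. None rose (0 at an unadjusted p under 0.05 in edgeR, 0 by DESeq2) and 3 fell, or 12.5% of the 24, where 5.51% of all genes fell and 11.8% were called in either direction. These were Fnip1 and Flcn, partners in a complex that acts on the Rag GTPases, and Sesn1, a leucine-responsive inhibitor of the pathway, with log2 fold changes of -0.66 (adjusted p = 0.0014), -0.58 (adjusted p = 0.0066) and -0.65 (adjusted p = 0.0028). DESeq2 called 2 of the 3 and not Flcn (adjusted p = 0.018). Mock and NRG1 levels did not overlap for 4 of the 24 genes, or 16.7%, against 19.7% over all genes. Among 17 tested genes of the ATF4 response to amino acid shortage, 1 rose and 1 fell, and together they were 11.8% of the list, the same share as over all genes. Shmt2, a mitochondrial serine and glycine enzyme, rose with a log2 fold change of 1.03 (SE 0.12, adjusted p = 5.4e-05), and Ddit4, an inhibitor of mTORC1, fell with -0.69 (SE 0.14, adjusted p = 0.0034). Of 10 tested amino acid and neurotransmitter carriers from other families, edgeR called Ctns alone, the cystine exporter of lysosomes, with a log2 fold change of -0.56 (SE 0.13, adjusted p = 0.0066), and DESeq2 did not call it (adjusted p = 0.026). Ctns was 10% of that list, where 11.8% of all genes were called. No gene of that list rose, with 0 at an unadjusted p under 0.05 in edgeR and 0 by DESeq2.

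The remaining 30 genes did not enter the test. Of these, 11 had 0 reads in the 6 libraries, which at this depth allows up to 0.19 to 0.44 CPM per library (3 counts, for counting error only). They were Slc1a2, the kidney and gut carriers Slc6a18, Slc6a19 and Slc6a20, Slc6a13, Slc6a14, Slc7a12, Slc7a13, Slc7a15, Slc36a2 and Slc36a3. A 0 in these tables is not always an absent RNA, since Col1a2 was counted at 0 in 5 libraries and 2 in the other, while Col1a1, the partner chain of the same collagen, had 119349 counts or more in every library. The other 19 were read too rarely or in too few samples. The monoamine carriers were among them, with 0 to 4 reads of Slc6a4, which takes up serotonin, and at most 1 read of Slc6a2 or Slc6a3, for noradrenaline and dopamine, in any library. Slc6a15, a carrier of branched-chain amino acids and proline, had 1, 10 and 7 reads in mock and 1, 18 and 11 in NRG1 samples.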

How the data were processed

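Sequencing was of poly(A)-selected RNA from 3 mock and 3 NRG1 samples (Illumina). The deposited values are raw counts per RefSeq gene, which the authors obtained with HTSeq from TopHat2 2.0.10 alignments to rn5. The strand setting is not given in the sources used here. The 5 HTSeq summary lines were left out, and 47.0% to 49.9% of alignments lay in genes. Groups and culture numbers came from the sample titles.

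The test was edgeR (4.0.16, under R 4.3.3). After filterByExpr with a minimum count of 10, counts were scaled by TMM and fitted by quasi-likelihood with the culture as a block, as in the study's paired design, and p-values were adjusted by Benjamini-Hochberg over all 9740 genes. Standard errors are the log2 fold change over the root of F, and 95% intervals use the same fit. Pair ratios used a prior count of 2. Without gene lengths, levels were not compared between genes. DESeq2 1.42.0 was an alternative.

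Cultures were independent cell preparations. Deviations from group means correlated across genes with r of 0.91, 0.67 and 0.81 within numbers 1, 2 and 3, and between -0.80 and 0.51 across numbers. The pairing comes from the titles and the study's methods. The transporter set and the lists were chosen with earlier results of these data known. Named genes were those called, 13 fixed genes of the set, the 5 with most reads and the 3 uncalled with the largest change. Up to 4 called genes per further list were named too. Slc6a9, Slc38a7 and others outside this rule were named after their values were seen. One tested gene is counted in the totals but not reported here. The scripts were tested on simulated counts.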

Additional observations from a re-analysis of the deposited data

How the results depend on the processing

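The replicate block decided the calls. With no replicate block, edgeR called 0 transporters up, 0 down and 0 up over 2-fold (6 at an unadjusted p under 0.05). That fit called 0 of all 9740 genes, so this result is not particular to transporters. DESeq2 with no replicate block, added after seeing the data, likewise called 0, 0 and 0 (7 at an unadjusted p under 0.05). It called 1.86% of all genes. The smallest adjusted p of a transporter was 0.20 in edgeR and 0.011 in DESeq2 with no block. With the block, DESeq2 called 6 transporters (all genes, 9.66%), all among the 7 of edgeR, and missed Slc1a1 (adjusted p = 0.032). A fold threshold inside the test left 2 up and 0 down at 1.5-fold (1 down at an unadjusted p under 0.05) and 1 up at 2-fold. At an adjusted p of 0.05, 2 transporters fell. With no low-count filter 1 passed as down over 2-fold, Slc43a2 at a log2 fold change of -1.003, and Slc7a2 (0.92) and Slc7a6 (0.47) were called too. Leaving out each replicate in turn gave 5 to 6 up, 1 down, 2 to 4 up over 2-fold and 0 to 1 down over 2-fold. Of all genes, these fits called 12%, 8.86% and 6.51% without replicates 1, 2 and 3. Slc7a11 alone among the named transporters changed sign, between -0.61 and 0.20 over these fits and at 0.0060 in DESeq2 with no replicate block. The filter of 10 counts in every sample left 24 tested transporters in place of 29. Among the genes named by rule, it removed Slc1a3 and Slc6a11. DESeq2, with or without the block, gave no adjusted p for Slc6a11. RLE, library size alone and robust empirical Bayes called the same 7 transporters (all genes, 12.6%, 11.6% and 12.1%). Leaving out Slc7a6os changed no call. The 3 pairs and the low counts of Slc1a1, Slc1a3 and Slc7a2 limit the precision.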
